A study of Homo sapiens with 19 samples.

Results

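The AP-1 transcription factors FOS, FOSB, FOSL1, FOSL2, JUN, JUNB, JUND and ATF3 were followed in RNA-seq of melanoma cells and melanocytes in which BRG1 or MITF had been silenced. The 8 genes were chosen by name, with earlier results of these data known, and matched by symbol to Ensembl identifiers. All 8 were found among the 44717 gene identifiers listed for any sample. The data comprise 19 samples in 7 groups. In 501Mel, a human melanoma line, 3 samples carried the scramble shRNA shSCR1, 3 carried shBRG1, 2 carried shSCR2 and 2 carried shMITF. In Hermes 3A, an immortalised and untransformed human melanocyte line, 3 samples each carried shSCR, shBRG1 or shMITF, so that both Hermes 3A knockdowns share their control samples. The shRNAs were delivered by lentivirus, with a single construct for BRG1 (the chromatin remodelling ATPase encoded by SMARCA4) and a single construct for MITF (the master regulator of the melanocyte lineage), so that an effect of the target and an off-target effect of its construct cannot be told apart. 501Mel cells were grown in serum-containing medium, and the Hermes 3A medium additionally held the phorbol ester TPA, cholera toxin, stem cell factor and endothelin-1. TPA is a classical inducer of AP-1, and cell line and medium cannot be told apart in these data.

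AP-1 is a dimer of basic leucine zipper proteins. JUN family proteins pair with each other or with a FOS family protein, FOS family proteins need a JUN partner to bind DNA, and ATF3 pairs with JUN proteins or with itself. The preferred site of JUN-FOS dimers is TGACTCA, the TPA response element, and that of ATF-containing dimers is TGACGTCA, the cAMP response element. FOS, FOSB, JUN, JUNB and ATF3 are immediate early or stress-induced genes, FOSL1 and FOSL2 encode the FRA proteins that lack the strong activation domain of FOS, and JUND is often the steadily expressed JUN protein. In melanoma, high FOSL1 and JUN are known from cells with low MITF.

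The promoters of 3 genes are shown because JUN, JUND and ATF3 each carry an ATF-type 8-base element before the RefSeq start and were each higher after shBRG1 in 501Mel. The choice used both features, and whether the element goes with the response was not tested. FOSB was also higher after shBRG1 in 501Mel, but its promoter held none of the motifs searched for below. FOSL1 was higher as well and had no promoter entry. Another ATF3 promoter entry held none of the motifs. The sequences are from RefSeq (GRCh38.p14, gene strand, 5′ to 3′), with the matched motif in capitals.
JUN, chr1:58784096-58784125 (minus strand): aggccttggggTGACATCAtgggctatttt
JUND, chr19:18281623-18281872 (minus strand): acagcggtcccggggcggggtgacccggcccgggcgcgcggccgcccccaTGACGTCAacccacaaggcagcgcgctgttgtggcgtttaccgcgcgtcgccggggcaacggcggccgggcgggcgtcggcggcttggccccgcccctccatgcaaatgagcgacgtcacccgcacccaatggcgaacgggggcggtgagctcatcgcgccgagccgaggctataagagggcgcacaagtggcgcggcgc
ATF3, chr1:212565157-212565332 (plus strand): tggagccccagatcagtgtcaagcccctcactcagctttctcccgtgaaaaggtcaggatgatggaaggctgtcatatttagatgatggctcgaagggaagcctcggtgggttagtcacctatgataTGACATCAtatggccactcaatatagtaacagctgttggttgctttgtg

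Windows from 250 bases before to 50 bases after the RefSeq start were available for 7 of the 8 genes, with 2 entries for ATF3 and none matched for FOSL1. They were searched on both strands for TGACTCA, TGACATCA, TGACGTCA and the E-box CACGTG and the M-box CATGTG, both of which MITF can bind. The first base of the element lay at -67 in JUN (TGACATCA), at -123 in the first ATF3 entry (TGACATCA) and at -200 in JUND (TGACGTCA). Either of these elements was present in 4.44% of the 35116 promoter windows in the table. FOSL2 held TGACTCA at +5 and CATGTG on the opposite strand at -51, letters found in 4.95% and 11.1% of all windows. FOS, FOSB, JUNB and the second ATF3 entry held none of these exact letters, and CACGTG (7.26% of windows), was found in none of the members. A match is a description of the sequence, and binding was not examined here.

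By Ensembl identifier in GENCODE 29 (GRCh38), FOS is on chromosome 14 (75278774-75282230, plus strand), FOSB on 19 (45467995-45475179, plus), FOSL1 on 11 (65892049-65900573, minus) and FOSL2 on 2 (28392448-28417312, plus). JUN is on chromosome 1 (58780788-58784327, minus), JUNB on 19 (12791496-12793315, plus), JUND on 19 (18279760-18281622, minus) and ATF3 on 1 (212565334-212620777, plus). JUN, JUNB and JUND consist of a single exon each. JUNB shares 259 exonic bases with HOOK2 on the opposite strand, and FOSB lies within the span of ERCC1 on the opposite strand without shared exonic bases. Whether the counting used strand is not given in the sources used here, so reads of JUNB and HOOK2 could not be told apart over the shared bases. HOOK2 itself had between 345 and 1506 counts per sample. Reads from unspliced ERCC1 RNA over FOSB could not be told apart either, and ERCC1 had between 1830 and 4661 counts per sample.

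Summed over genes, the libraries held from 29158502 to 78857900 counts. SMARCA4 was 174 to 192 CPM (gene counts scaled to library size) with shSCR1 and 34.5 to 39.4 with shBRG1 in 501Mel, and 229.7 to 258 against 45.4 to 49.3 in Hermes 3A. MITF was 1003 and 1204 CPM with shSCR2 and 497 and 548 with shMITF in 501Mel, and 1021 to 1131 against 460.2 to 724 in Hermes 3A. MITF was also lower after shBRG1 in 501Mel (log2 fold change -1.55, SE 0.063, edgeR adjusted p 8e-16), and the MITF level of the 501Mel shMITF samples overlapped that of shSCR1 (501 to 599.7 CPM). Replicates were closest in the shSCR1 and shBRG1 groups of 501Mel (biological coefficient of variation 4.57% and 4.65%) and widest in Hermes 3A shMITF (28.8%), with 16.7% and 17.5% for shSCR2 and shMITF in 501Mel. The summed level of 7 melanocyte lineage markers was 28645 to 31321 CPM with shSCR1 and 3026 to 3332 with shBRG1, 19856 to 23614 with shSCR2 and 11402 to 11856 with shMITF in 501Mel, and 63830 to 65277, 31389 to 32624 and 26485 to 34362 with shSCR, shBRG1 and shMITF in Hermes 3A. All 7 markers had counts in every group. The 7 include MITF itself, and single markers did not all follow the sum. In group means, TYR was at 597 CPM with shSCR2 and 818.5 with shMITF in 501Mel. SOX10 was at 673 CPM with shSCR and 804 with shMITF in Hermes 3A. Of the other cell type markers, the leukocyte genes PTPRC, CD14 and LYZ summed to 0.125 to 3.27 CPM. PTPRC was at or below 0.0589 CPM in group means. The 2 endothelial genes summed to 0.215 to 1.59 CPM, and the keratinocyte level of 26.4 to 65.2 CPM was KRT10 alone. CD3E, KRT5, KRT14 and KRT1 were not listed for all samples and have no CPM value here. The 6 fibroblast markers summed to 3.63 to 5.04 CPM with shSCR1 and 15.8 to 19.3 with shBRG1, and COL1A2 alone reached 68.1 CPM in Hermes 3A shSCR, 143 with shBRG1 and 144 with shMITF. The part of these shifts in the results below was not tested. In bulk RNA a change in every cell and a change in the share of expressing cells cannot be told apart.

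**Figure D1:**
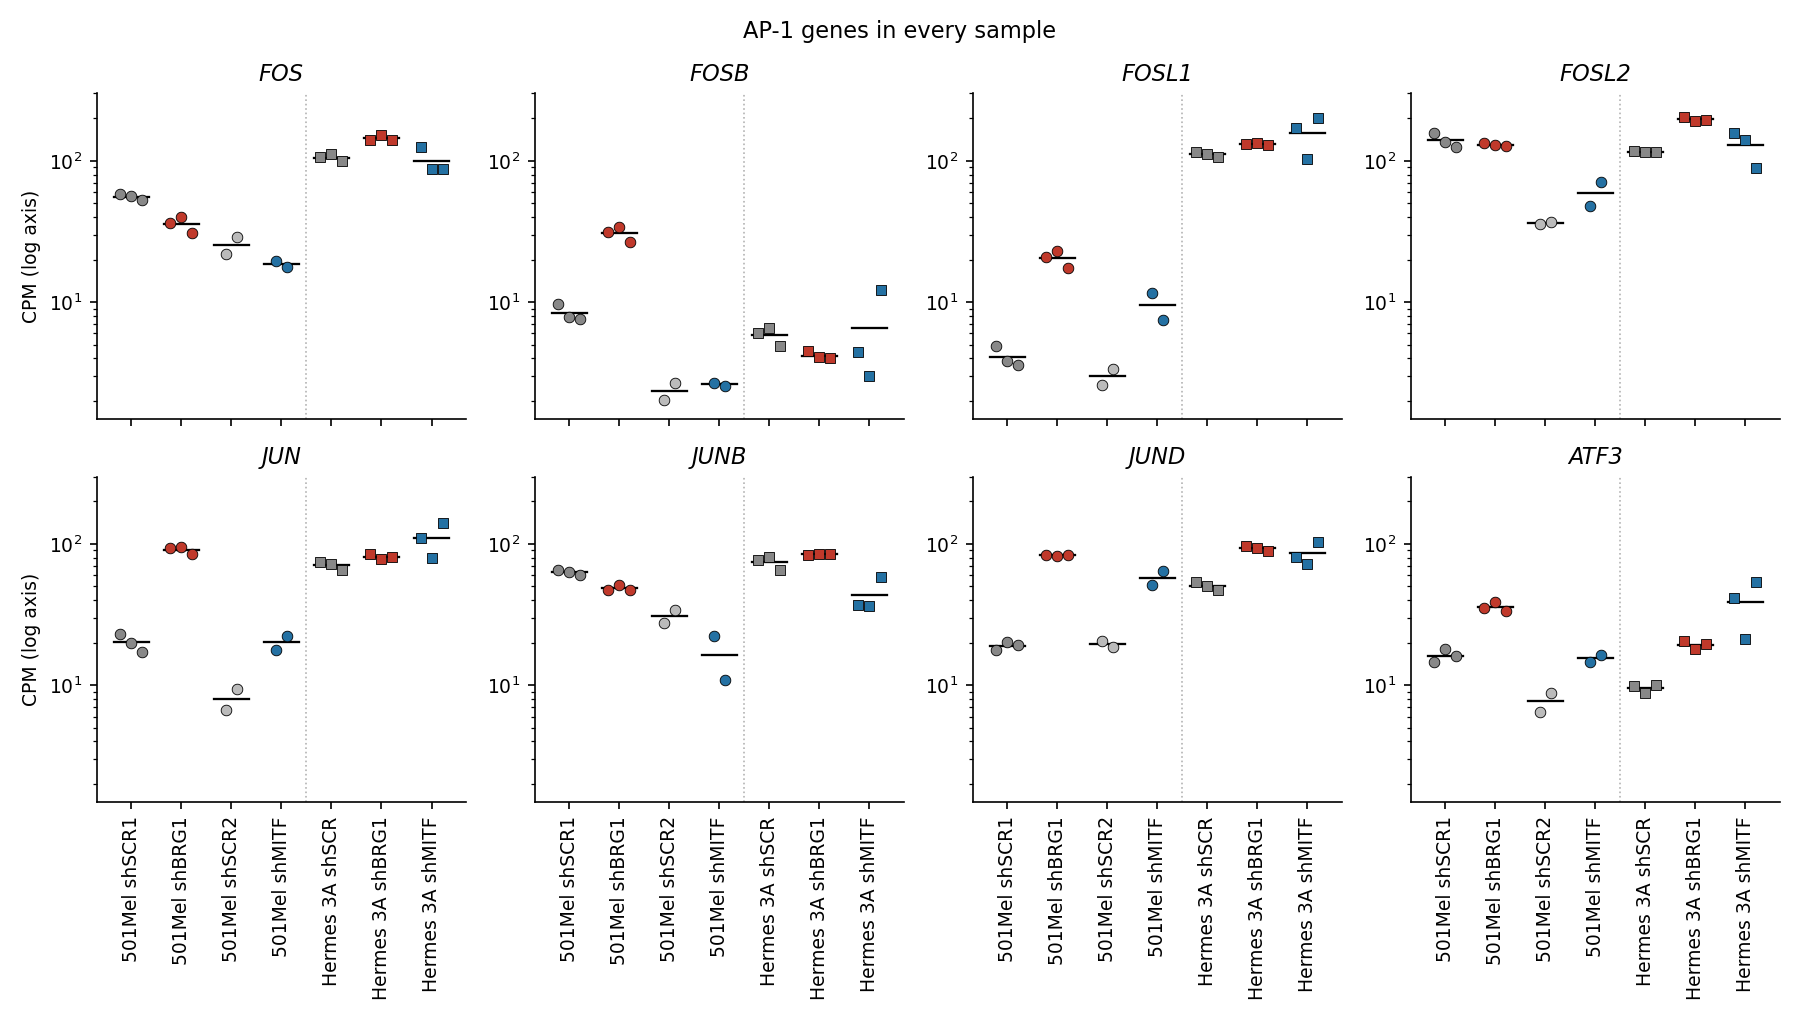
Level of each AP-1 gene in all 19 samples, in CPM normalised over all samples (log axis). Circles are 501Mel and squares Hermes 3A samples, grey for scramble, red for shBRG1 and blue for shMITF, and bars are group means. FOSL1 lies between 2.60 and 23.2 CPM in all 501Mel samples and between 103 and 199.9 in all Hermes 3A samples.

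The basal RNA levels of the 2 lines were compared first, to show which AP-1 transcripts each line holds. Protein was not measured. Of the 8 genes, FOSL1, JUN and JUND were lower in 501Mel shSCR1 than in Hermes 3A shSCR by the criteria used throughout (edgeR adjusted p under 0.05 and absolute log2 fold change over 1), none was higher, and of the 18731 genes tested 41.4% were called, 18.2% lower and 23.1% higher. FOSL1 was at 4.90, 3.85 and 3.57 CPM in the shSCR1 samples and at 116, 112 and 107 CPM in the Hermes 3A shSCR samples, and the log2 fold change was -4.71 (SE 0.082, adjusted p 1e-24). This was the largest difference among the 8 genes, and the groups were far apart. JUN was at 23.1, 19.99 and 17.2 CPM in 501Mel and 74.3, 72.6 and 65.9 CPM in Hermes 3A (log2 fold change -1.77, SE 0.078, adjusted p 2.2e-16). JUND was at 17.7, 20.1 and 19.2 CPM against 53.4, 50.6 and 47.2 CPM (-1.37, SE 0.065, adjusted p 9.1e-16). FOS (-0.88) and JUNB (-0.20) were lower and FOSB (0.57), FOSL2 (0.31) and ATF3 (0.79) higher in 501Mel, all under the fold criterion, so that all 8 members had an adjusted p of 0.0068 or less where 81.6% of all genes had one under 0.05. These smaller differences depended on the control group of 501Mel. With shSCR2 in place of shSCR1, 7 genes were called lower in 501Mel, where 22.9% of the 18610 genes tested were called lower and 20.7% higher, and FOSB (-1.28), FOSL2 (-1.66) and ATF3 (-0.30, adjusted p 0.1) turned negative, whereas FOSL1 (-5.17), JUN (-3.11) and JUND (-1.33) were lower with either group.

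To compare genes with each other, levels were divided by exon length, the union of all annotated exons of a gene. This can be longer than the transcripts made, and the order and shares below depend on it. In 501Mel shSCR1, JUNB stood highest at 34.6 ± 1.55 CPM per kb (SD, n = 3), followed by FOSL2 at 19.6 ± 2.38 and FOS at 17.3 ± 0.776, whose samples overlapped, and then by JUND (10.2 ± 0.652), JUN (5.68 ± 0.835), ATF3 (4.004 ± 0.419), FOSL1 (2.18 ± 0.370) and FOSB (1.51 ± 0.215) without overlap between neighbours. In Hermes 3A shSCR the order was FOSL1 at 59.2 ± 2.54 CPM per kb (SD, n = 3), JUNB at 40.8 ± 4.33, FOS at 32.6 ± 1.88, JUND at 27.1 ± 1.68, JUN at 20.03 ± 1.25, FOSL2 at 16.3 ± 0.236, ATF3 at 2.38 ± 0.177 and FOSB at 1.06 ± 0.155, and no neighbours overlapped. FOSL1 was therefore seventh of 8 in the melanoma line and the top member in the melanocyte line.

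The make-up of the FOS and JUN families is given by the share of each gene in the summed level per length. The 4 FOS family genes summed to 40.5 ± 3.68 CPM per kb with shSCR1 and 45.6 ± 3.85 with shBRG1 in 501Mel (SD, n = 3), with overlapping samples, while the share of FOSL1 in the sum was 5.35% ± 0.425 and 23.7% ± 1.30, that of FOSB 3.73% ± 0.224 and 12.1% ± 0.435, and that of FOS 42.7% ± 2.06 and 24.1% ± 1.14. The JUN family summed to 50.5 ± 2.12 CPM per kb with shSCR1 and 97.2 ± 2.36 with shBRG1, and JUNB made up 68.5% ± 0.587 of it with shSCR1 but 27.5% ± 0.821 with shBRG1, where JUND held 46.0% ± 1.23. With shSCR2 the FOS family summed to only 14.9 ± 2.03 CPM per kb (SD, n = 2), of which FOSL1 made up 10.6% ± 0.548. The JUN family summed to 29.8 ± 2.47 there. How the sums with shBRG1 compare therefore depends on the scramble group. With shMITF in 501Mel, JUND made up 67.6% ± 8.79 of the JUN family, compared with 35.8% ± 5.43 with shSCR2 (SD, n = 2). In Hermes 3A, FOSL1 was the main FOS family member in all 3 groups (48.9% to 61.6% on average) and FOSB stayed at or under 1.49% in every sample. JUNB made up 46.4% ± 1.65 of the JUN family with shSCR and 23.7% ± 1.89 with shMITF, and JUND was at 30.8% ± 1.16 and 45.8% ± 2.07 (SD, n = 3). These shares were not tested.

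**Figure D2:**
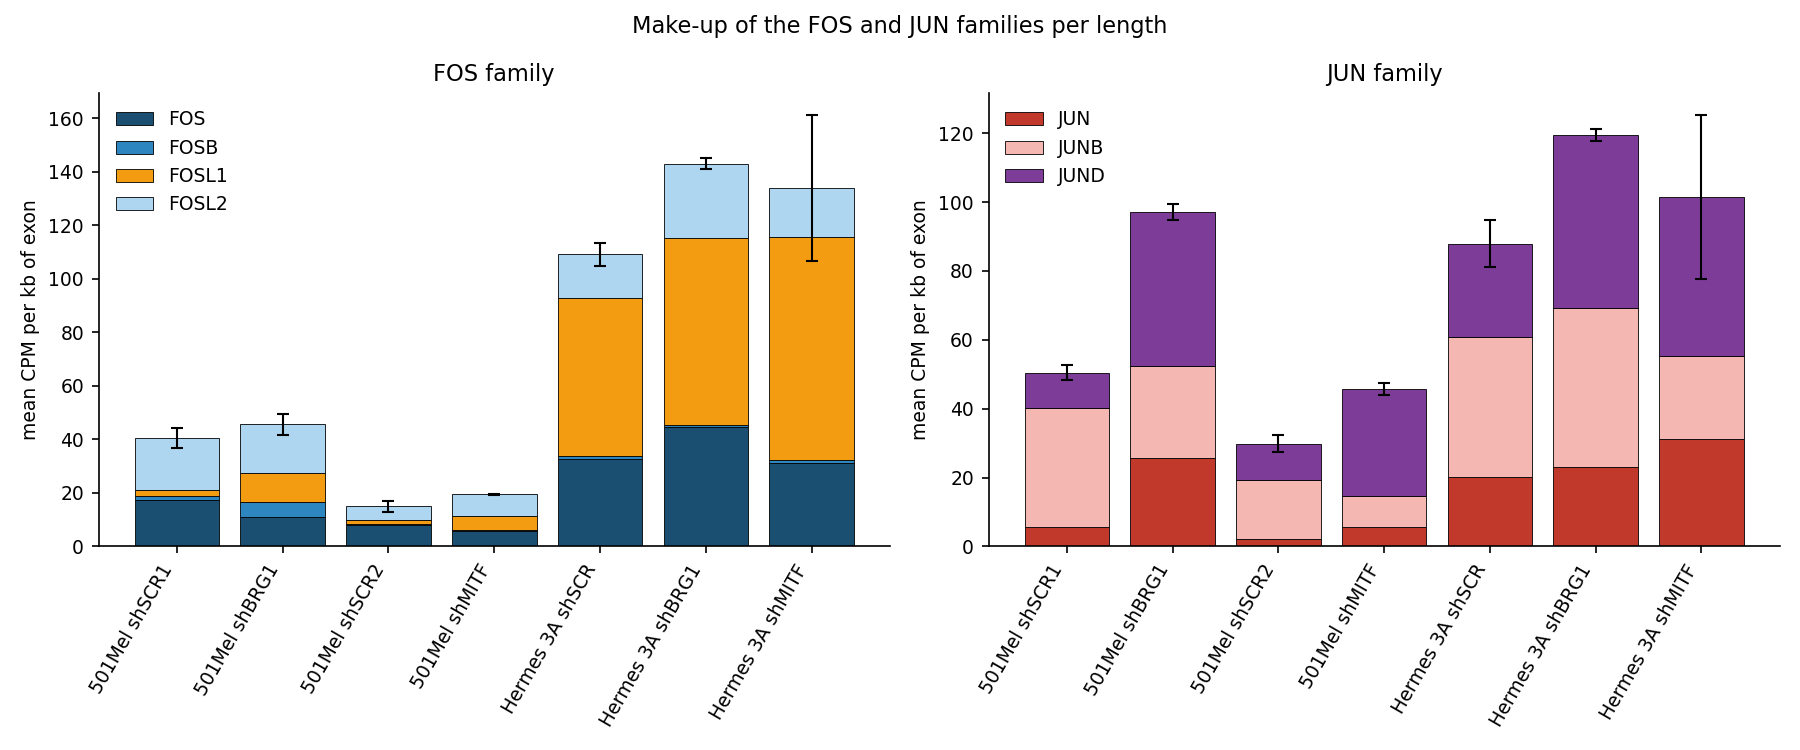
Mean CPM per kb of exon of the FOS family (left) and the JUN family (right) in the 7 groups, stacked by gene, with the SD of the family sum as error bars (n = 3, or n = 2 for 501Mel shSCR2 and shMITF). FOSL1 takes up a small part of the FOS family in 501Mel scramble samples and the largest part in Hermes 3A, and JUND is the largest part of the JUN family in all 4 knockdown groups.

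Silencing of BRG1 in 501Mel raised FOSB, FOSL1, JUN, JUND and ATF3, while FOS, FOSL2 and JUNB stayed within the fold criterion. Thus 5 of 8 members were called up and none down, in a comparison where 39.1% of the 20514 genes tested were called, 21.7% up and 17.4% down, and the median log2 fold change of the members was 1.46 compared with 0.053 over all genes. All 8 passed the adjusted p alone, as did 80.3% of all genes, and 7 of 8 did not overlap between the groups, as did 81.6% of the genes listed in all samples. With all 501Mel groups in a single edgeR fit, 6 of the 8 passed the adjusted p, and FOSL2 (0.31) and JUNB (0.086) did not. In the FOS family, FOSL1 was at 4.90, 3.85 and 3.57 CPM with shSCR1 and at 20.7, 23.2 and 17.6 CPM with shBRG1 (log2 fold change 2.26, SE 0.11, adjusted p 2e-14). FOSB was at 9.78, 7.80 and 7.63 CPM and at 31.3, 34.1 and 26.8 CPM (1.82, SE 0.091, adjusted p 7.4e-14). Every knockdown sample lay above every control sample for both genes. FOS, the founding member of the family, went the other way, with 58.1, 56.4 and 53.2 CPM in the control and 36.5, 39.9 and 30.8 CPM in the knockdown samples (-0.70, SE 0.067, adjusted p 3.7e-09). FOSL2 overlapped between the groups, at 158, 136 and 125 CPM and at 134, 130 and 127 CPM (-0.16, SE 0.062, adjusted p 0.026), and its sign turned when library sizes replaced TMM (0.19).

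In the JUN family, JUN itself rose from 23.1, 19.99 and 17.2 CPM to 93.7, 94.9 and 85.4 CPM (log2 fold change 2.13, SE 0.073, adjusted p 8.6e-17), and JUND from 17.7, 20.1 and 19.2 CPM to 83.9, 82.7 and 83.1 CPM (2.08, SE 0.054, adjusted p 3.3e-20). The knockdown samples of JUND all lay between 82.7 and 83.9 CPM, far above the controls. JUNB, which often opposes JUN, was at 65.4, 63.6 and 59.9 CPM and at 47.5, 51.3 and 47.2 CPM, lower without overlap but within the fold criterion (-0.42, SE 0.051, adjusted p 8.3e-08). ATF3, a stress-induced partner of JUN, was at 14.6, 17.9 and 16.0 CPM and at 34.97, 38.9 and 33.4 CPM (1.09, SE 0.071, adjusted p 1.1e-12). Its call rested close to the threshold. It was lost without shSCR1 replicate 1 (log2 fold change 0.997) and when the change was tested against a log2 fold change of 1 with glmTreat (adjusted p 0.099), which left 4 members.

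**Figure D3:**
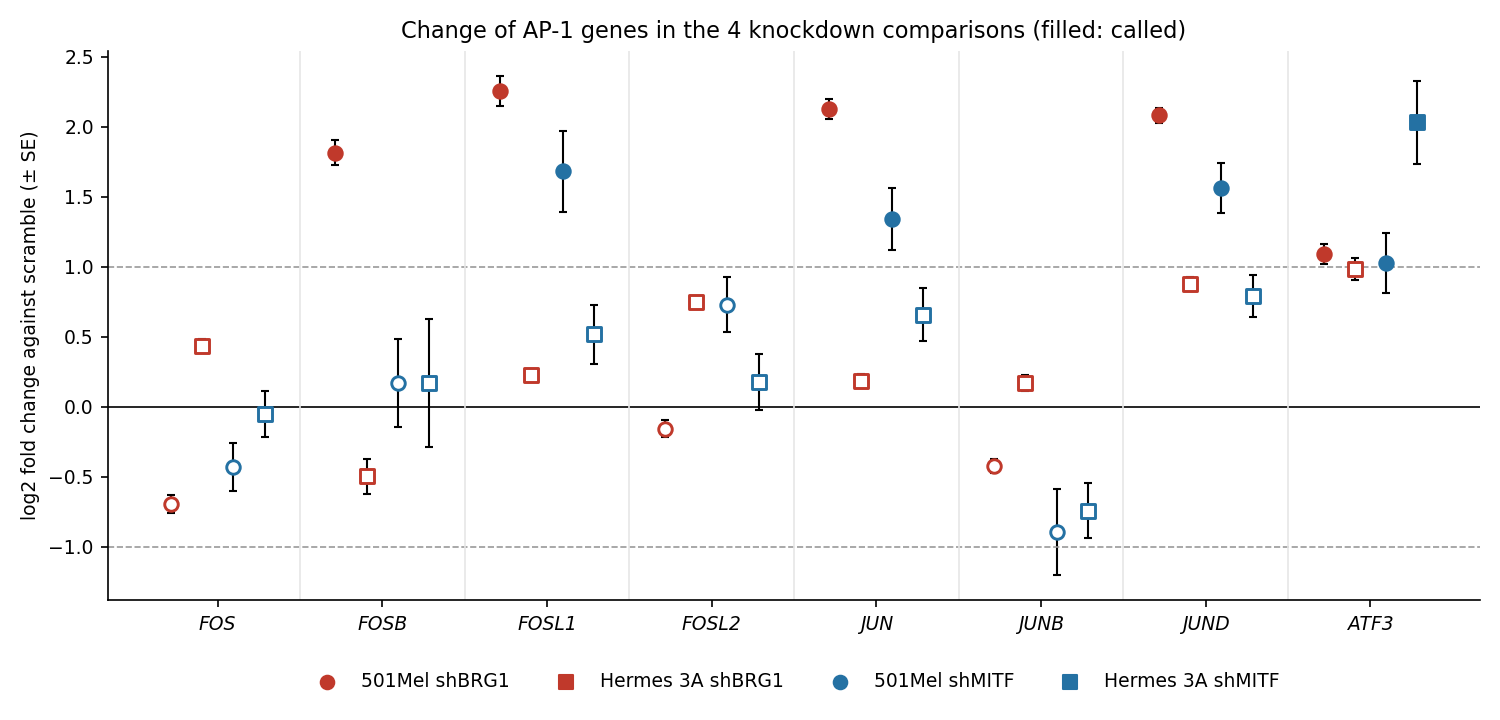
Log2 fold change (± SE) of each AP-1 gene in the 4 knockdown comparisons against their own scramble samples. Filled symbols are called, dashed lines mark a log2 fold change of -1 and 1, circles are 501Mel, squares Hermes 3A, red shBRG1 and blue shMITF. Only ATF3 in shMITF is filled among the Hermes 3A squares, while 5 shBRG1 and 4 shMITF circles are filled in 501Mel.

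Silencing of MITF in 501Mel, against its own scramble shSCR2, called FOSL1, JUN, JUND and ATF3 up and none down, 4 of 8 members where 8.99% of the 17701 genes tested were called, 5.59% up and 3.4% down. The median over the members was 0.88 and that over all genes 0.010. FOSL1 was at 2.60 and 3.39 CPM with shSCR2 and at 11.7 and 7.47 CPM with shMITF (log2 fold change 1.68, SE 0.29, adjusted p 0.0048). JUN was at 6.63 and 9.42 CPM and at 17.7 and 22.4 CPM (1.34, SE 0.22, adjusted p 0.0042). JUND was at 20.7 and 18.8 CPM and at 50.8 and 64.4 CPM (1.56, SE 0.18, adjusted p 0.00093). In each of these genes the knockdown samples lay above both controls, with 2 samples a group. Over the members, 7 of 8 did not overlap, as did 60.9% of all genes, and 5 of 8 had an adjusted p under 0.05, as did 20.5%. ATF3 was at 6.51 and 8.85 CPM and at 14.6 and 16.4 CPM (1.03, SE 0.21, adjusted p 0.011), and its call was lost without shSCR2 replicate 1 (0.86) or without shMITF replicate 2 (0.90). FOSL2, at 35.7 and 36.8 CPM against 48.0 and 70.5 CPM, passed the adjusted p but not the fold criterion (0.73, SE 0.20, adjusted p 0.034). FOS (21.9 and 28.98 CPM against 19.7 and 17.7 CPM) and JUNB (27.4 and 34.2 against 22.2 and 10.8 CPM) did not pass, with log2 fold changes of -0.43 (adjusted p 0.1) and -0.90 (adjusted p 0.088). With all 501Mel groups in a single edgeR fit, FOS (adjusted p 0.0087) and JUNB (0.02) had an adjusted p under 0.05. ATF3 was not called in that fit (log2 fold change 0.995). JUNB was called down without shMITF replicate 1 (-1.48). FOSB was low and overlapped between the groups, at 2.03 and 2.67 CPM and 2.68 and 2.56 CPM (0.17, SE 0.31, adjusted p 0.75). None of the 4 calls was kept by glmTreat against a log2 fold change of 1, where the lowest adjusted p was 0.072, for JUND.

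The scramble groups of 501Mel themselves differed in most AP-1 genes, and the labels do not say how shSCR1 and shSCR2 differ. Of the 8 members, 6 were called lower in shSCR2 than in shSCR1 and none higher, where 33% of the 19056 genes tested were called, 20.7% lower and 12.3% higher. The log2 fold changes were -1.94 for FOSL2 (SE 0.11, adjusted p 1.1e-06), -1.82 for FOSB, -1.31 for JUN, -1.13 for FOS, -1.06 for ATF3 and -1.02 for JUNB, each with an adjusted p of 0.00012 or less. Without shSCR2 replicate 1, 3 of these calls were left, as FOS (-0.95), JUNB (-0.88) and ATF3 (-0.87) came under the fold criterion. FOSL1 (-0.45, SE 0.19, adjusted p 0.065) and JUND (0.063, SE 0.11, adjusted p 0.61) were not called, and only JUND overlapped between the scramble groups. The genes targeted by the shRNAs were higher in shSCR2, SMARCA4 by 0.83 (SE 0.062, edgeR adjusted p 4.5e-06) and MITF by 0.97 (SE 0.0895, adjusted p 1.4e-05). SMARCA4 was at 311 and 333 CPM with shSCR2 and at 174 to 192 CPM with shSCR1.

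The effect of the choice of control on both 501Mel knockdowns was therefore computed, an alternative added after the data were seen. Against shSCR2, shBRG1 raised 6 members, where 32% of the 21475 genes tested were called up and 20.1% down: FOSB by 3.62, JUN by 3.43, FOSL1 by 2.69, ATF3 by 2.15, JUND by 2.02 and FOSL2 by 1.79 on the log2 scale, and FOS (0.43) and JUNB (0.60) changed sign. Against shSCR1, shMITF raised FOSL1 (1.20, SE 0.21, adjusted p 0.00097) and JUND (1.59, SE 0.11, adjusted p 5.5e-06), where 12.2% of the 19179 genes tested were called up. In that comparison FOS (-1.60), FOSB (-1.69), FOSL2 (-1.25) and JUNB (-1.96) were called down, beside 17.6% of all genes, and JUN (-0.011, adjusted p 0.95) and ATF3 (-0.071, adjusted p 0.61) were not called. With both scramble groups pooled, shMITF called only FOSL1 (1.38, adjusted p 0.04) and JUND (1.58, adjusted p 0.0067), and shBRG1 called the same 5 genes as against shSCR1. FOSL1 and JUND were thus called up in both 501Mel knockdowns with each of the 3 choices of control, and JUN and ATF3 after shMITF only with shSCR2. MITF itself overlapped between shMITF (497 and 548 CPM) and shSCR1 (501 to 600 CPM). Here and below, shMITF against shSCR1 therefore compares 501Mel sets without a clear difference in MITF. The pooled control holds those shSCR1 samples too.

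**Figure D4:**
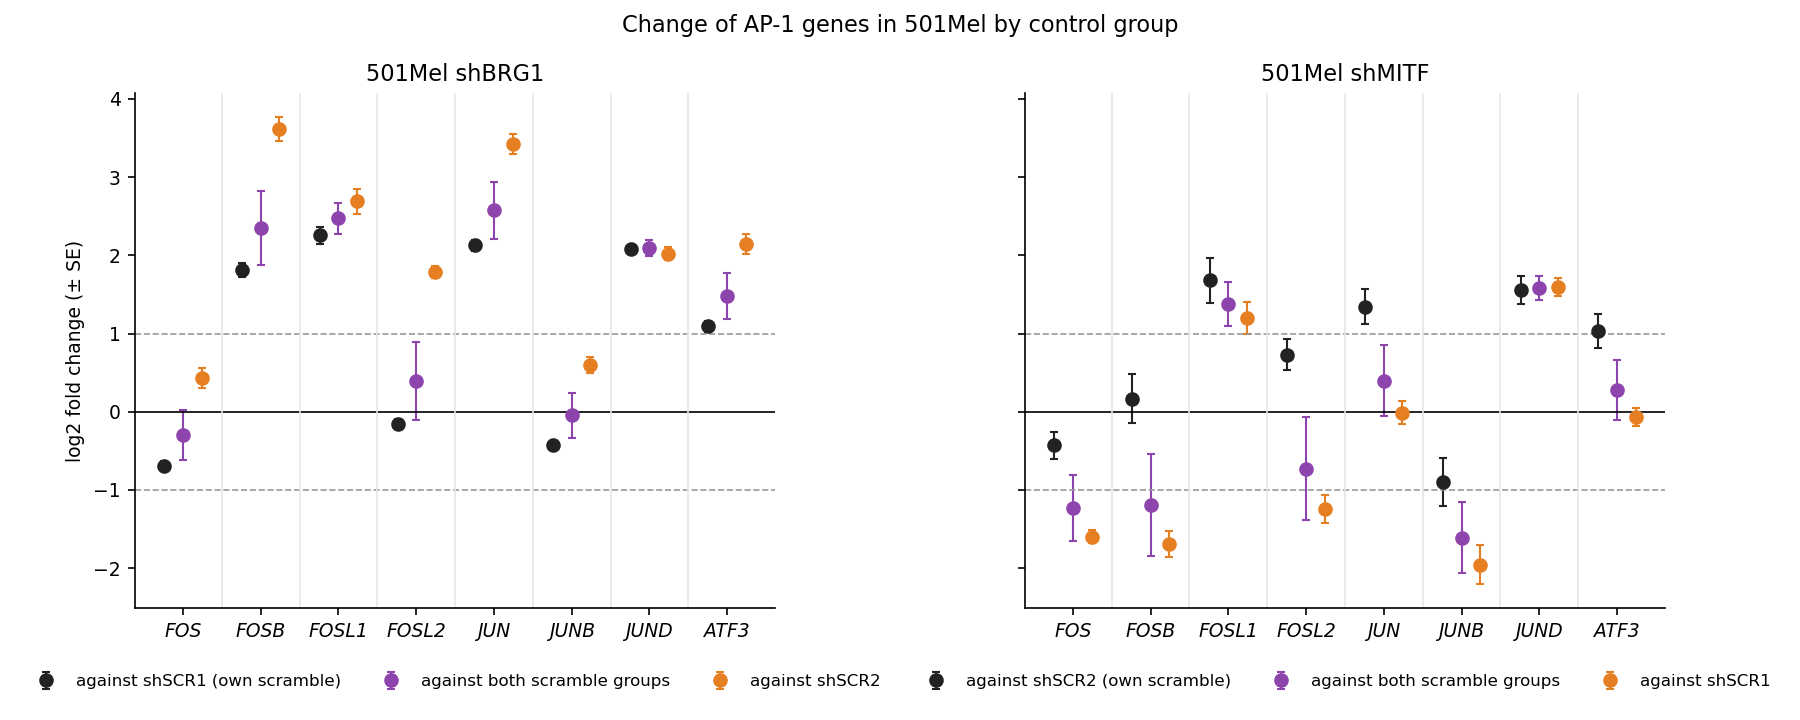
Log2 fold change (± SE) of the AP-1 genes in 501Mel after shBRG1 (left) and shMITF (right) against the scramble group of the same set (black), both scramble groups pooled (purple) and the other scramble group (orange), with dashed lines at a log2 fold change of -1 and 1. JUND stays between 1.56 and 2.10 throughout, whereas JUN after shMITF moves from 1.34 to -0.011.

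In Hermes 3A, silencing of BRG1 called none of the 8 members by edgeR or by DESeq2, where 9.26% of the 17222 genes tested were called, 5.78% up and 3.47% down. In the fit of these 2 groups all 8 had an adjusted p under 0.05 (and an unadjusted p under 0.05), as did 56.9% of all genes, and no member overlapped between the groups, as for 61.7% of genes. With all Hermes 3A groups in a single fit, which shares the wider spread of shMITF, 4 of the 8 had an adjusted p under 0.05 (FOS, FOSL2, JUND and ATF3), and FOSB (0.43), FOSL1 (0.44), JUN (0.49) and JUNB (0.52) did not. ATF3 was at 9.91, 8.79 and 10.1 CPM with shSCR and at 20.4, 18.1 and 19.5 CPM with shBRG1, just under the fold criterion (log2 fold change 0.99, SE 0.079, adjusted p 1.3e-11), and it was called without shSCR replicate 1 (1.00), shSCR replicate 3 (1.02) or shBRG1 replicate 2 (1.03) and with library sizes in place of TMM (1.09). JUND was at 53.4, 50.6 and 47.2 CPM and at 96.6, 93.8 and 89.7 CPM (0.87, SE 0.049, adjusted p 6.4e-15). FOSL2 was at 118, 116 and 115 CPM and at 205, 193 and 196 CPM (0.75, SE 0.041, adjusted p 2.5e-15). These 3 genes had the largest values. FOS was at 106, 111 and 99.3 CPM and at 140.4, 152 and 141 CPM (0.44, SE 0.046, adjusted p 3.1e-09), higher than the controls without overlap. FOSL1 (0.22), JUN (0.18) and JUNB (0.17) were slightly higher, and FOSB was lower, at 6.05, 6.61 and 4.92 CPM and at 4.48, 4.06 and 4.01 CPM (-0.50, SE 0.13, adjusted p 0.0012).

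Silencing of MITF in Hermes 3A called ATF3 alone, 1 of 8 members where 7.39% of the 16508 genes tested were called, 3.35% up and 4.04% down. An adjusted p under 0.05 was found for 4 of 8 members and 17% of all genes, and 4 of 8 did not overlap between the groups, as did 40.4% of genes. ATF3 was at 9.91, 8.79 and 10.1 CPM with shSCR and at 41.2, 21.3 and 53.9 CPM with shMITF (log2 fold change 2.03, SE 0.30, adjusted p 0.0039), and the call was lost with glmTreat (adjusted p 0.065). The spread between the knockdown samples was wide, yet all 3 lay above all 3 controls. JUND (81.3, 72.3 and 103.9 CPM with shMITF, log2 fold change 0.79, SE 0.15, adjusted p 0.01) and JUN (110.1, 79.8 and 142 CPM, 0.66, SE 0.19, adjusted p 0.048) were higher within the fold criterion. JUNB was lower, at 76.6, 80.8 and 65.5 CPM with shSCR and 37.3, 36.2 and 58.2 CPM with shMITF (-0.74, SE 0.19, adjusted p 0.034). The remaining genes overlapped between the groups, with FOSL1 at 169.7, 103 and 199.9 CPM (0.52, adjusted p 0.13), FOSL2 at 157, 142 and 89.3 CPM (0.17, adjusted p 0.6), FOS at 125, 88.1 and 87.9 CPM (-0.051, adjusted p 0.86) and FOSB at 4.45, 3.00 and 12.2 CPM (0.17, adjusted p 0.83). Replicate 3 stood apart in FOSB, which had the opposite sign without it (-0.62, adjusted p 0.15).

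Whether the same shRNA acted differently in the lines was tested as a contrast of the 2 effects. For shBRG1, 5 of 8 members differed (effect in 501Mel minus effect in Hermes 3A), where 26.9% of the 21697 genes tested were called, 12% in the positive and 14.9% in the negative direction. FOSB (2.28, SE 0.15, adjusted p 9.7e-16), FOSL1 (2.00, SE 0.11, adjusted p 4.3e-16), JUN (1.91, SE 0.091, adjusted p 9.9e-19) and JUND (1.18, SE 0.074, adjusted p 9e-17) were more positive in 501Mel, and FOS was more negative (-1.16, SE 0.084, adjusted p 2.2e-14). FOSL2 (-0.94, SE 0.077, adjusted p 4.7e-13) and JUNB (-0.62, SE 0.078, adjusted p 7.8e-09) were more negative within the fold criterion, FOSL2 being called without shSCR1 replicate 3 (-1.03), and the difference in ATF3 was 0.080 (SE 0.11, adjusted p 0.57). The negative differences rested on shSCR1. With shSCR2 as the 501Mel control, computed after the data were seen, FOSB (4.15), JUN (3.27), FOSL1 (2.49), ATF3 (1.18), JUND (1.18) and FOSL2 (1.07) were called in the positive direction, where 20% of the 22697 genes tested were called positive and 15.6% negative, and FOS (0.018, adjusted p 0.94) and JUNB (0.46, adjusted p 0.0014) had the opposite sign. FOSB, FOSL1, JUN and JUND were thus called with either control. After shBRG1, JUN in 501Mel (85.4 to 94.9 CPM) and JUND (82.7 to 83.9 CPM) lay close to their levels in Hermes 3A shBRG1 (78.6 to 84.5 and 89.7 to 96.6 CPM). FOSL1 in 501Mel shBRG1 (17.6 to 23.2 CPM) remained well under Hermes 3A shBRG1 (130 to 133 CPM) and shSCR (107 to 116 CPM). For shMITF none of the 8 was called by edgeR (2.64% of 19284 genes), 4 had an unadjusted p under 0.05, and DESeq2 called FOSL1 (1.13, adjusted p 0.045). The edgeR values were 1.15 for FOSL1 (SE 0.35, adjusted p 0.11), 0.76 for JUND (adjusted p 0.12), 0.67 for JUN (adjusted p 0.28) and -1.01 for ATF3 (adjusted p 0.22). With shSCR1 as the 501Mel control, 5 members were called in the negative direction, ATF3 (-2.11), FOSB (-1.87), FOS (-1.55), FOSL2 (-1.43) and JUNB (-1.21), and none in the positive, where 9.23% of the 20280 genes tested were called negative and 6.71% positive.

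The knockdowns were also compared with each other within each line. In 501Mel, with each knockdown set against its own scramble, only FOSB was called (shBRG1 effect minus shMITF effect 1.70, SE 0.22, adjusted p 1.1e-05), where 27.3% of 22255 genes were called. JUN (0.83, adjusted p 0.0043) and JUND (0.54, adjusted p 0.007) were more positive with shBRG1 and FOSL2 (-0.86, adjusted p 0.0048) more negative, within the fold criterion. Since these effects rest on different scramble groups, the dependence on the control given above applies. In Hermes 3A, where shBRG1 and shMITF samples were compared directly, none was called by edgeR (5.81% of 16927 genes), 5 had an unadjusted p under 0.05, and DESeq2 called ATF3 (-1.04, adjusted p 0.0045). JUNB was higher with shBRG1 than with shMITF (log2 fold change 0.91, SE 0.18, adjusted p 0.018), and ATF3 lower (-1.04, SE 0.29, adjusted p 0.053).

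Genes around AP-1 were examined as 4 lists from textbook knowledge, put together with earlier results of these data known. The list counts are therefore a description and not an independent test. For reference, the median log2 fold change over all genes was 0.053 and 0.010 for shBRG1 and shMITF in 501Mel and 0.0093 and 0.045 in Hermes 3A. The shares of all genes called up and down, beside which the list counts stand, were 21.7% and 17.4% for shBRG1 and 5.59% and 3.4% for shMITF in 501Mel, and 5.78% and 3.47% for shBRG1 and 3.35% and 4.04% for shMITF in Hermes 3A. Of 11 other basic leucine zipper partners, shBRG1 in 501Mel called 2 up and 1 down, with MAFK, a small MAF protein, at 26.2 ± 2.07 and 75.8 ± 7.05 CPM (SD, n = 3, log2 fold change 1.48, SE 0.066). shMITF in 501Mel called none of these 11, and each Hermes 3A comparison called 1 up and none down of 10 tested, which with shBRG1 was BATF2 (4.96 ± 1.11 against 21.6 ± 1.36 CPM). The medians of this list were -0.13, 0.11, -0.073 and 0.42 in the same order. Of 18 kinases, factors and ligases upstream of AP-1, shBRG1 in 501Mel called 2 up and 4 down, shares close to or under those of all genes. SRF, which drives FOS through the serum response element, was at 49.8 ± 3.47 and 122 ± 5.84 CPM (1.24, SE 0.053), and MAP2K7, a kinase that activates JNK, at 24.5 ± 0.256 and 52.9 ± 2.33 CPM (1.06, SE 0.053). MAPK3, which encodes ERK1, was at 57.2 ± 2.48 and 21.0 ± 0.642 CPM (-1.49, SE 0.054), and MAPK10, which encodes JNK3, at 3.45 ± 0.517 and 0.224 ± 0.0717 CPM (-4.02, SE 0.21). The other comparisons called no gene of this list by edgeR, with 1, 14 and 2 genes at an adjusted p under 0.05 for shMITF in 501Mel, shBRG1 in Hermes 3A and shMITF in Hermes 3A. The medians of this list were -0.47, -0.079, -0.082 and 0.15. Against shSCR2, shBRG1 in 501Mel called 1 upstream gene up and 8 down, and SRF and MAP2K7 were no longer among those called up.

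Of the immediate early genes outside AP-1, shBRG1 in 501Mel called 7 up and 3 down of 22 tested, with a median of 0.53. KLF10 rose from 7.72 ± 0.484 to 46.2 ± 3.41 CPM (SD, n = 3, log2 fold change 2.53, SE 0.070) and KLF4 from 1.54 ± 0.130 to 7.52 ± 0.516 CPM (2.23, SE 0.12), while EGR3 (-1.76, SE 0.12) and NR4A3 (-1.54, SE 0.051) fell. Genes of this list were thus called in both directions, as were all genes in this comparison (21.7% up and 17.4% down). shMITF in 501Mel called 2 up and 3 down of 21, with GADD45B (1.56, SE 0.31) and NR4A2 (1.34, SE 0.25) up and EGR1 (-1.93, SE 0.38) and EGR3 (-2.02, SE 0.46) among those down. Hermes 3A shBRG1 called 2 up and 2 down of 20, with NR4A2 (1.99, SE 0.079) and BTG2 (1.66, SE 0.066) up and EGR3 (-1.22) and EGR1 (-1.08) down, and Hermes 3A shMITF called 4 up and 1 down of 20, including NR4A2 (2.09, SE 0.15), KLF4 (1.64) and EGR2 (-1.64). NR4A2, an orphan nuclear receptor gene, was called up in all 4 comparisons. The medians in the other 3 comparisons were 0.15, -0.24 and 0.030. Against shSCR2, shBRG1 in 501Mel called 10 up and 2 down of 22, with a median of 0.98. Against shSCR1, shMITF in 501Mel called 2 up and 6 down, and NR4A2 was not among those called up.

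Of the textbook AP-1 target genes, which hold matrix proteases, cytokines and adhesion genes, 11 were called up and 4 down of 21 tested after shBRG1 in 501Mel, where the down count is close to the share over all genes, and the median log2 fold change was 1.14. IL6 was at 0.0315 ± 0.0545 and 1.74 ± 0.365 CPM (SD, n = 3) and MMP3 at 0.0812 ± 0.0413 and 2.30 ± 0.148 CPM, so that both came up from a level near the limit of detection. TIMP1, an inhibitor of matrix proteases, was at 96.3 ± 14.9 and 17.5 ± 1.19 CPM (-2.51, SE 0.098), and CCND1, which encodes cyclin D1, at 1229 ± 42.8 and 360.4 ± 12.8 CPM (-1.82, SE 0.049). Against shSCR2, shBRG1 called 14 up and 2 down of 21, with a median of 2.63, and TIMP1 and CCND1 were not among those called down. shMITF in 501Mel called 7 up and 1 down of 16, with TNC (2.02, SE 0.55) up and CCND1 down (-1.17, SE 0.16), and a median of 0.33. Against shSCR1 it called 3 up and 8 down of 18, with a median of -0.30. Hermes 3A shBRG1 called 6 up and 1 down of 18, with IL6 at 1.77 ± 0.204 and 63.7 ± 1.08 CPM (5.14, SE 0.084), LIF at 7.14 ± 0.744 and 18.7 ± 1.32 CPM (1.38, SE 0.088) and SPP1, which encodes osteopontin, at 433 ± 28.0 and 92.5 ± 6.38 CPM (-2.24, SE 0.049). Hermes 3A shMITF called 3 up and 2 down of 16, with IL6 at 8.71 ± 4.09 CPM (2.31, SE 0.35), TNC at 4.56 ± 3.04 CPM (3.24, SE 0.57), SPP1 at 47.2 ± 31.3 CPM (-3.18, SE 0.46) and CCND1 at 1701 ± 424 CPM compared with 4440.5 ± 91.2 in the control (-1.36, SE 0.21). The medians in Hermes 3A were 0.48 and 0.56. IL6, AXL and TNC were called up in all 4 comparisons, and IL6 and AXL also in both 501Mel knockdowns against the other scramble group. Levels were low in part, with TNC at 0.732 ± 0.292 CPM with shSCR2 and 2.84 ± 1.72 with shMITF in 501Mel (SD, n = 2). Levels of AXL are not given here. In Hermes 3A shBRG1, where IL6 was called up, no AP-1 member was called. ATF3 (log2 fold change 0.99), JUND (0.87) and FOSL2 (0.75) were higher there within the fold criterion, and FOSB was lower (-0.50). A link between AP-1 and IL6 was not tested.

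Over the 19 samples, the genes whose log2 CPM followed each member most closely among 17990 genes were, by Pearson's r, KCTD13 (0.992), GADD45B (0.974) and PRKG1-AS1 (0.973) for JUN, SLC22A5 (0.985), PHETA1 (0.979) and TPRG1L (0.972) for JUND and ABL2 (0.947), GEM (0.938) and ZNF503-AS2 (0.921) for JUNB. For FOSL1 they were GPRASP3 (0.989), GFRA1 (0.988) and KRBOX5 (0.987), for FOS GABARAP (0.980), LACTB (0.978) and LAMTOR4 (0.976), for FOSL2 MT2A (0.947), H2BC11 (0.947) and DNAJC6 (0.932), for FOSB LUCAT1 (0.934), DUSP5 (0.933) and LINC02575 (0.933), and for ATF3 ING4 (0.923), SPATA24 (0.899) and ZNF599 (0.884). The 19 samples fall into 7 groups of 2 lines, so these values describe a shared pattern over groups and not independent observations. No member was among the 3 closest genes of another member. Between members, r was highest for FOSL1 and JUN (0.870) and for JUN and JUND (0.853), and lowest for FOS and FOSB (-0.018).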

How the data were processed

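The 19 RNA-seq samples form 7 groups, with group and replicate number from the sample labels. The authors removed ribosomal RNA from total RNA and treated the libraries with a duplex-specific nuclease, which lowers the most abundant cDNAs and can compress differences between highly expressed genes. The submitters' processing notes name CASAVA 1.8, TopHat 1.4.1, Bowtie 0.12.7 and hg19, and the counting program and annotation release are not given in the sources used here. The deposited values are raw read counts per Ensembl gene. Genes not listed for all samples of a comparison were left out of it.

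Each of 10 comparisons was fitted with its own groups in edgeR 4.0.16 (R 4.3.3) with TMM normalization, filterByExpr and a robust quasi-likelihood fit, and p-values were Benjamini-Hochberg adjusted over all genes tested. Genes were called where the adjusted p was under 0.05 and the log2 fold change above 1 or below -1. The standard error was taken as the size of the log2 fold change over the root of the F statistic. The 8 members passed the filter in all 10 comparisons. CPM values are TMM-normalized over all 19 samples for the 33031 genes listed in all of them. Exon lengths are the union of all exons of a gene in GENCODE 29, which is not the annotation behind the counts. The lowest member count was 65, for FOSB in shSCR2.

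The labels do not say whether replicates are separate cultures, so p-values measure only the spread between these samples, which may be technical. Replicate pairs differed by more than sampling noise (chi-square per degree of freedom 2.27 to 157). The members and lists were chosen with earlier results of these data known. From each list the text names, per comparison, at most 2 called genes per direction with a mean of at least 100 counts in the higher group, while AXL and the genes shared by all 4 knockdown comparisons were named after their values were seen. The 3 genes most like each member were chosen by Pearson's r among genes with at least 10 counts on average. Alternatives were DESeq2 1.42.0, library sizes, filters, glmTreat, the replicate block, a fit of all groups of a line, pooled scramble groups, the other scramble group (added after the data were seen, except between lines) and leaving out each replicate. The code was tested on simulated data. Python 3.11.15, pandas 2.3.3 and matplotlib 3.10.9 made tables and figures. Some genes of these lists are not reported here.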

Additional observations from a re-analysis of the deposited data

Results flagged for a closer look

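The effect of shBRG1 differed between the 501Mel and Hermes 3A lines in 5 AP-1 genes by the test of the difference itself, in edgeR with Benjamini-Hochberg adjustment. The differences in log2 fold change (501Mel minus Hermes 3A) were 2.28 for FOSB, 2.00 for FOSL1, 1.91 for JUN, 1.18 for JUND and -1.16 for FOS. Of all genes tested in this contrast, 26.9% were called. The call for FOS was lost with library sizes (-0.89) and when genes under 10 counts in any sample were dropped (-0.97). With shSCR2 in place of shSCR1, an alternative added after the data were seen, the difference was 0.018 for FOS (adjusted p 0.94) and 4.15, 2.49, 3.27 and 1.18 for FOSB, FOSL1, JUN and JUND. The melanocyte marker sum in 501Mel was 3026 to 3332 CPM after shBRG1 compared with 28645 to 31321 with shSCR1, and in Hermes 3A 31389 to 32624 compared with 63830 to 65277. The part of this shift in the differences was not tested.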

How the results depend on the processing

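Over single genes and comparisons, 467 of the values under alternatives that keep all samples stayed on the same side, 27 changed sign, 15 gained and 11 lost a call, and on leaving out 1 replicate 536 stayed, 15 changed sign, 11 gained and 6 lost a call. Limits are set by 2 samples a group in the 501Mel shMITF set, the scramble groups, and low counts of FOSB. The cause of the changes was not tested. Counts of called members moved for shMITF in 501Mel to 2 with pooled scramble groups and 0 with glmTreat, for shMITF in Hermes 3A to 0 with glmTreat, for shBRG1 in Hermes 3A to 1 with library sizes, for the lines to 7 with shSCR2, for the shMITF effect between lines to 1 with DESeq2 and 5 with shSCR1, for the shBRG1 minus shMITF effect in 501Mel to 2 with library sizes, and for shBRG1 against shMITF in Hermes 3A to 1 with DESeq2 and 1 with library sizes. On leaving out 1 replicate these counts ranged from 0 to 1 for shBRG1 in Hermes 3A, 3 to 6 for shSCR2 against shSCR1, 0 to 1 for the shMITF effect between lines, 1 to 3 for the shBRG1 minus shMITF effect, and 0 to 1 for shBRG1 against shMITF in Hermes 3A.

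Signs changed with shSCR2 in place of shSCR1 for shBRG1 in FOS (0.43), FOSL2 (1.79) and JUNB (0.60), for the shBRG1 effect between lines in FOS (0.018), FOSL2 (1.07) and JUNB (0.46) and for the lines in FOSB (-1.28), FOSL2 (-1.66) and ATF3 (-0.30), and with shSCR1 in place of shSCR2 for shMITF in FOSB (-1.69), FOSL2 (-1.25), JUN (-0.011) and ATF3 (-0.071) and for its effect between lines in FOSL2 (-1.43) and JUN (-0.68). Pooled scramble groups turned FOSL2 for shBRG1 (0.40) and FOSB (-1.19) and FOSL2 (-0.73) for shMITF. Library sizes in place of TMM turned FOSL2 for shBRG1 in 501Mel (0.19), FOS for shMITF in Hermes 3A (0.036), JUNB between lines (0.061), JUND between scramble groups (-0.074) and FOSB in the shMITF effect between lines (0.0068), and moved the median of all genes from 0.053 to 0.40 for shBRG1 in 501Mel, with 6192 genes up and 2398 down in place of 4453 and 3571. The split of called genes also moved for the lines (4333 up and 3414 down to 5310 and 2730), for shBRG1 (996 and 598 to 1231 and 467) and shMITF (553 and 667 to 686 and 540) in Hermes 3A, for the shBRG1 effect between lines (2610 and 3224 to 3696 and 2281) and for the shBRG1 minus shMITF effect (2625 and 3447 to 3586 and 2665). At least 10 counts in every sample turned JUND between scramble groups (-0.044) and FOSB in the shMITF effect (0.0028). On leaving out 1 replicate the range included both signs for shMITF in Hermes 3A in FOS (-0.25 to 0.043) and FOSB (-0.62 to 0.51), for JUND between scramble groups (-0.019 to 0.19), for the shMITF effect between lines in FOSB (-0.36 to 0.78) and JUNB (-0.75 to 0.26), for ATF3 in the shBRG1 minus shMITF effect (-0.12 to 0.25) and for shBRG1 against shMITF in Hermes 3A in FOSB (-1.01 to 0.12) and JUND (-0.012 to 0.23).

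Same-numbered samples did not deviate together where 3 pairs exist (correlations from -0.049 to 0.068), and the labels do not say what a number marks. In the 501Mel shMITF set the 2 same-numbered pairs gave 0.13 and the 2 others -0.13, which are too few pairs to decide, and the block moved the calls over all genes there from 1592 to 1857. With the replicate block the count of called members stayed at 5, 4, 0 and 1 in the 4 knockdown comparisons, and FOSB turned for shMITF in Hermes 3A (-0.065) and for the shMITF effect between lines (0.23).

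Calls over all genes, the background of the members' counts, were 1592 for shMITF in 501Mel but 575 with pooled scramble groups, 2518 with all 501Mel groups in 1 fit, 223 with glmTreat and 956 without shMITF replicate 2. They were 1220 for shMITF in Hermes 3A but 185 with glmTreat and 590 to 677 without 1 of the shSCR replicates, and 1594 for shBRG1 in Hermes 3A but 602 with glmTreat and 1056 where each sample needed at least 10 counts, a filter that also left 5183 of 8024 for shBRG1 in 501Mel, 4406 of 7747 for the lines, 3558 of 6282 for the scramble groups and 3560 of 5834 for the shBRG1 effect between lines. For the shMITF effect between lines they were 509, with 904 by DESeq2, 3233 with shSCR1 and 152 to 803 on leaving out 1 replicate, and for shBRG1 against shMITF in Hermes 3A 984, with 363 to 413 without 1 of the shBRG1 replicates.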
